A study of Oryza sativa with 6 samples.

Results

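*LTN1* (*Os05g0557700*, LEAF TIP NECROSIS 1) is 1 of the 925 genes with values in the deposited leaf table of the *Dap1* study. It was chosen by its measured values: among the listed genes of its KEGG class it was the only one lower in *Dap1*, so its difference between the groups is described here without a test, and its place among called genes is description too. The *Dap1* mutant arose in a T-DNA population of the *japonica* rice variety Zhonghua11 (ZH11) and carries a T-DNA, heterozygous in the plants that were genotyped, upstream of *OsWUS*, a homeobox gene of meristem maintenance. Leaves were taken at the booting stage from 3 *Dap1* and 3 WT (ZH11) field-grown replicates, 1 library each. *Dap1* is a single mutant line, and it headed later than WT, so genotype and the day or hour of sampling cannot be told apart. Whether plants were pooled within a replicate is not stated in the sources used here, and p-values measure the spread between these libraries.

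LTN1 is a ubiquitin-conjugating (E2) enzyme and the rice counterpart of PHO2 of *Arabidopsis*. E2 enzymes carry activated ubiquitin and pass it, mostly with the help of an E3 ligase, to proteins that are then degraded. In *Arabidopsis*, PHO2 acts in the endomembrane system on phosphate transporters and on the phosphate exporter PHO1, and under phosphate starvation its mRNA is cleaved through the microRNA miR399. In rice, loss of *LTN1* leads to excess phosphate in the shoot and to necrotic leaf tips.

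The level of *LTN1* mRNA was lower in each *Dap1* library than in each WT library. The FPKM, the number of fragments scaled to transcript length and to the mapped fragments of the library, was 7.42, 7.92 and 7.52 in *Dap1* and 19.85, 20.85 and 22.24 in WT. The groups did not overlap, and the lowest WT library was 2.51 times the highest *Dap1* library. The mean FPKM was 7.62 ± 0.265 in *Dap1* and 21.0 ± 1.20 in WT (SD, n = 3 each). Over the 9 pairs of a *Dap1* and a WT library, the *Dap1* level was between 33.4% and 39.9% of the WT level. In bulk leaf RNA, fewer cells that express a gene and less RNA per cell cannot be told apart.

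These levels rest on many fragments. The raw counts were 524, 614 and 585 in *Dap1* and 1638, 1328 and 1665 in WT. WT replicate 2 had the lowest raw count of its group but not the lowest FPKM, because it was also the smallest library, with a relative size of 0.860 against 1.10 and 1.00 in the other WT libraries. After division by relative library size the count was 568 ± 24.5 in *Dap1* and 1562 ± 88.5 in WT (SD, n = 3 each). The coefficient of variation of these scaled counts was 4.32% in *Dap1* and 5.67% in WT. Counting error alone would give 4.17% at the *Dap1* depth and 2.55% at the WT depth. The *Dap1* replicates therefore differed by about as much as counting error gives, and the WT replicates by more.

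**Figure D1:**
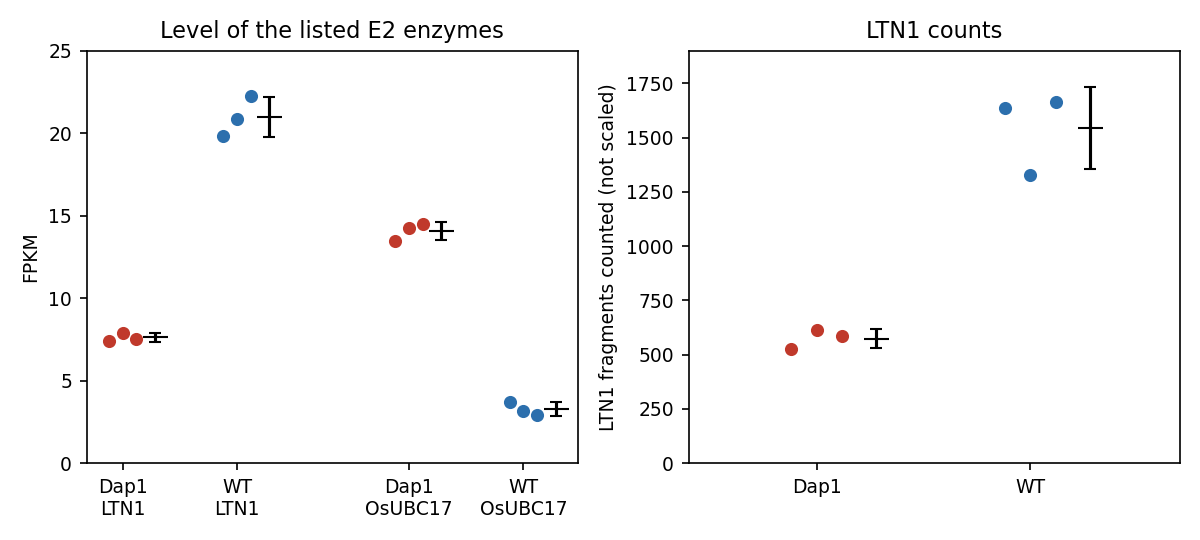
Left, the FPKM (fragments scaled to transcript length and mapped fragments) of the E2 genes *LTN1* and *OsUBC17*; right, the raw fragment counts of *LTN1*. Each point is 1 library, *Dap1* in red and WT in blue, with the mean and SD (n = 3) in black beside them. *LTN1* lay between 7.42 and 7.92 FPKM in *Dap1* and between 19.85 and 22.24 FPKM in WT. *OsUBC17* was higher in *Dap1* than in WT, a direction fixed by the choice of *LTN1* within their shared KEGG class.

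In edgeR's quasi-likelihood fit over the whole table the log2 fold change of *LTN1*, *Dap1* over WT, was -1.46 with a standard error of 0.054. The *Dap1* level was thus 36.4% of the WT level, or 2.75-fold lower. When any 1 of the 6 libraries was dropped, the log2 fold change lay between -1.50 and -1.41. The value depended on how the libraries were scaled. It was -1.91 with TMM factors and -2.31 with DESeq2's size factors, both computed over the listed genes. The listed genes were selected for changing, so factors computed over them are biased. Calls lost under these factors, reported below, may come from that bias. These factors moved the median of all listed genes by -0.45 and -0.85. Because a change of scaling moves all genes nearly alike, the distance of *LTN1* from that median, -2.61, is by construction the same under the 3 scalings.

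The fragments per unit of FPKM depend on transcript length and library size. Divided by relative library size, those of *LTN1* were 74.4, 75.3 and 73.9 in *Dap1* and 74.7, 74.1 and 74.5 in WT. Their coefficient of variation was 0.663% over the 6 libraries. The relative sizes came from this same ratio over 258 genes, *LTN1* among them, so the near constancy is largely by construction. The divided quantity was 2.91 times that of the median gene among these 258 genes, whose FPKM was nowhere under 2. Only 2 of these genes had a larger one, so *LTN1* was counted over a long transcript and had many fragments for its FPKM.

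Within the table, *LTN1* was among the more abundant genes that were lower in *Dap1*, with a fold change near their median. Of the 925 listed genes, 98.6% passed an adjusted p-value of 0.05 and an absolute log2 fold change of 1 in edgeR's quasi-likelihood test. The called genes were higher in *Dap1* for 56.9% of the list and lower for 41.7%. The authors had selected the listed genes for changing in these same libraries, so a called gene is the rule here and the test is not independent. In 42.1% of the listed genes the FPKM of each *Dap1* library lay below that of each WT library, as it did for *LTN1*.

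Among the 386 genes below both thresholds on the lower side, *LTN1* itself counted, it had rank 168 by fold change, and the median log2 fold change of this group was -1.39. The log2 fold changes of 38 other genes of the group lay within 1 standard error of that of *LTN1*. Its neighbours in this order were the hypothetical gene *Os05g0121850* with -1.46 (standard error 0.41) and *PLA2-II*, a phospholipase A2, with -1.46 (standard error 0.17), which do not differ from it beyond their errors. By FPKM it had rank 40 in WT, where the median of the group was 2.24, and rank 41 in *Dap1*. Next above it in WT was *OsDH1*, a zinc-containing alcohol dehydrogenase, with 9.87 ± 0.390 FPKM in *Dap1* and 21.1 ± 0.0907 FPKM in WT (SD, n = 3 each). The WT levels of the 2 genes differed by less than the SD of *LTN1*, whereas in *Dap1* the libraries of *OsDH1* averaged higher. In *Dap1* the potassium channel gene *KAT3* stood next above it, at 7.63 ± 0.484 FPKM in *Dap1* and 18.4 ± 0.850 FPKM in WT, and its *Dap1* mean differed from that of *LTN1* by less than either SD.

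By mean count *LTN1* had rank 14 of the 386 genes, and by the size of its standard error also rank 14, counted from the smallest. Of the 14 genes with the most fragments it had rank 4 by fold change. The 3 that were lower still were a leucine-rich repeat gene (*Os08g0247600*), *OsNCED1*, a carotenoid oxygenase gene of abscisic acid synthesis, and *OsPOP9*, a prolyl endopeptidase gene, with log2 fold changes of -1.81, -1.68 and -1.51.

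**Figure D2:**
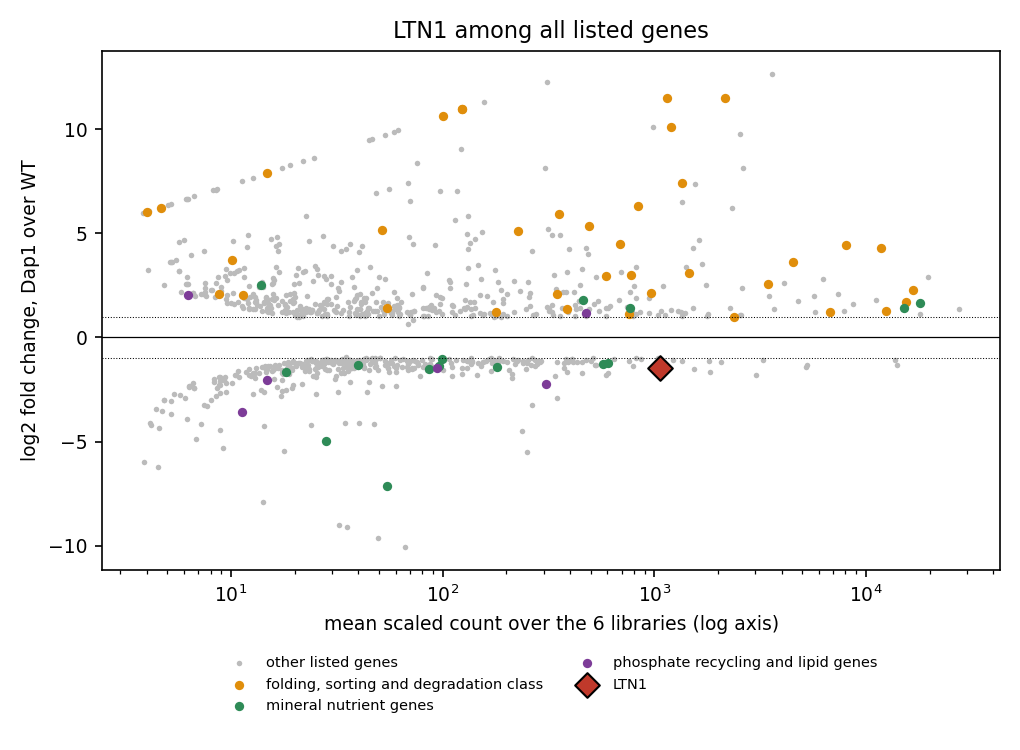
Log2 fold change (*Dap1* over WT, edgeR) against the mean scaled count over the 6 libraries (log axis) for the 925 listed genes, 1 point per gene. Dotted lines mark log2 fold changes of -1 and 1. *LTN1* (red diamond) lies below the lower line at -1.46, while the other coloured points of its KEGG class (orange) lie above 0. That direction was fixed by the choice of *LTN1* within the class.

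Genes of phosphate homeostasis were few in the table. By GO terms, gene symbols and descriptions 3 listed genes were found, *LTN1*, *OsPT5* and *OsPAP10d*. Besides *LTN1*, *OsPT5* was called higher and *OsPAP10d* lower in *Dap1*, where 56.9% and 41.7% of all listed genes were. *LTN1* was the only listed gene with the GO terms for the response to phosphate starvation, phosphate ion homeostasis and the regulation of phosphate transport across membranes, and it shared phosphate ion transport with *OsPT5*. Genes of the pathway outside the table, such as those for SPX proteins, PHR transcription factors and PHO1 exporters, were not analysed here.

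*OsPT5* (*Os04g0185600*) belongs to the family of phosphate transporters that take up phosphate at the plasma membrane. Its counts were 30, 49 and 31 in *Dap1* and 11, 12 and 4 in WT. Each *Dap1* library was above each WT library, at low levels of 1.12 ± 0.311 FPKM in *Dap1* and 0.287 ± 0.156 FPKM in WT (SD, n = 3 each). The log2 fold change was 1.97 with a standard error of 0.37 and an adjusted p of 3.67e-05 (edgeR, quasi-likelihood), opposite in sign to that of *LTN1*. The p-values of *OsPT5* and *OsPAP10d* are not independent evidence, since both genes were listed for changing in these same libraries. Because PHT1 transporter genes resemble each other, some fragments may belong to another member of the family.

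*OsPAP10d* (*Os12g0637200*) encodes a purple acid phosphatase, an enzyme class that frees phosphate from organic esters. Its counts in *Dap1* were 49, 58 and 33, and in WT they were 131, 77 and 95, and the groups did not overlap. The level was 1.91 ± 0.546 FPKM in *Dap1* and 4.15 ± 0.635 FPKM in WT (SD, n = 3 each). At -1.13 on the log2 scale, with a standard error of 0.21 and an edgeR adjusted p of 3.18e-05, it lay close to the threshold. It was -0.91 without *Dap1* replicate 3 and -0.99 without WT replicate 1, inside the threshold of 1 in both cases.

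A second list held enzymes that free phosphate or break down phospholipids, processes known to be used by plants short of phosphate. Of its 6 listed genes, 4 were called lower (66.7%, against 41.7% of all listed genes, a difference that was not tested) and 2 higher in *Dap1*. Their median log2 fold change was -1.76, where the median of all listed genes was 1.15. Because the authors selected listed genes beyond -1 or 1, the median of a list mainly shows which side holds more of its genes. The apyrase gene *Os12g0123500*, for an enzyme that splits nucleotides, had 103, 105 and 115 counts in *Dap1* and 571, 414 and 529 counts in WT, or -2.25 on the log2 scale (standard error 0.096). *PLA2-II* (*Os03g0261100*) had 2.98 ± 0.349 FPKM in *Dap1* and 8.23 ± 0.151 FPKM in WT (SD, n = 3 each), a change of the same size as that of *LTN1*. A lipid phosphate phosphatase gene (*Os01g0666000*) had 0, 4 and 1 counts in *Dap1* and 35, 12 and 17 in WT. An inorganic pyrophosphatase gene (*Os06g0150500*) had 7, 5 and 5 counts in *Dap1* and 16, 14 and 41 in WT, so both rest on few fragments.

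In the opposite direction, *OsNPC2* (*Os01g0955000*), whose product is a phospholipase C that cuts the headgroup from phospholipids, rose to 18.9 ± 1.51 FPKM in *Dap1*, against 8.51 ± 1.01 FPKM in WT (SD, n = 3 each). Its log2 fold change of 1.15 (standard error 0.085) was 0.70 with TMM factors and 0.30 with DESeq2's size factors, below the threshold. *OsPOP2* (*Os01g0612500*), described as a phospholipase or carboxylesterase, had 6, 13 and 12 counts in *Dap1* and 2, 2 and 3 in WT, too few for a stable fold change. The 2 listed genes of the phosphate-induced family, first known in tobacco cells given phosphate, were both called higher, where 56.9% of all listed genes were. *Os02g0756800* had 19.6 ± 0.565 FPKM in *Dap1* and 8.19 ± 0.186 FPKM in WT (SD, n = 3 each), and *Os02g0756200* had 6, 12 and 11 counts in *Dap1* and 1, 2 and 3 in WT. With TMM factors *Os02g0756800* was at 0.81 on the log2 scale and no longer called.

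**Figure D3:**
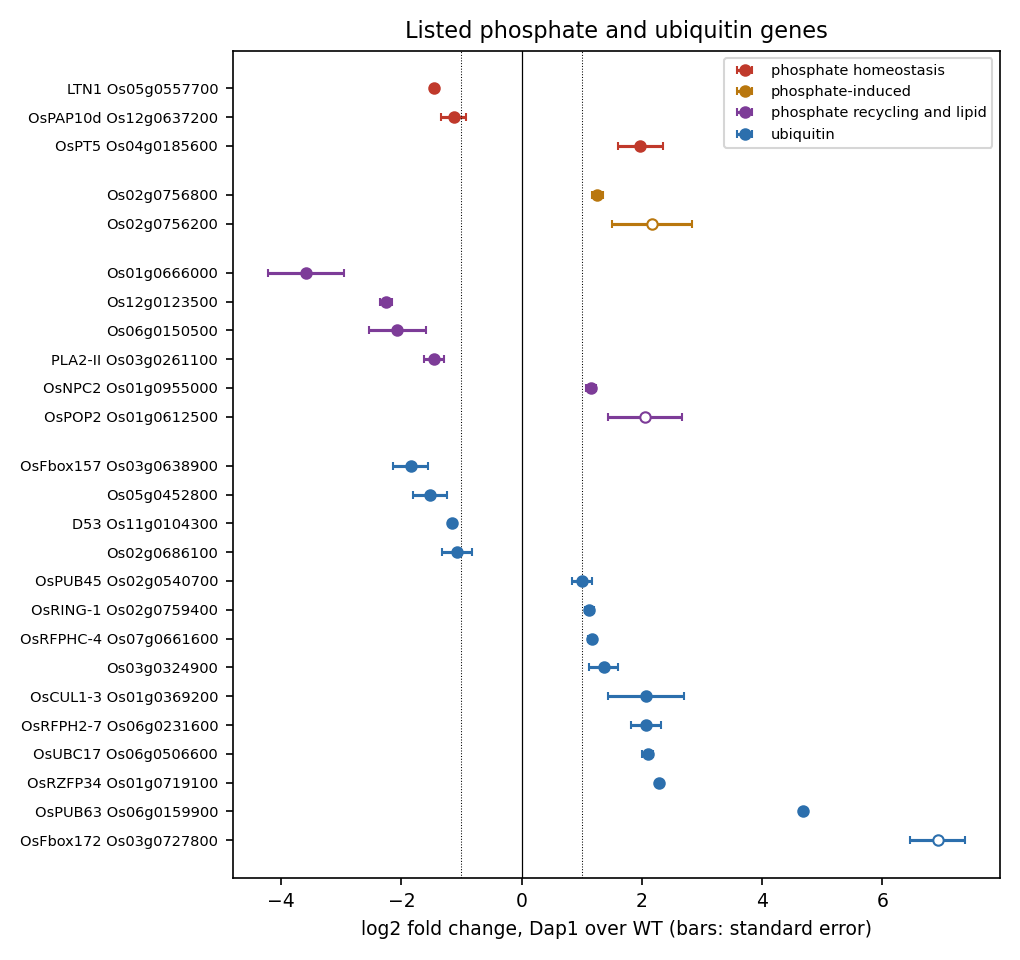
Log2 fold change (*Dap1* over WT, edgeR) with its standard error for the listed genes of phosphate homeostasis, the phosphate-induced family, phosphate recycling and lipids, and the ubiquitin pathway, 1 row per gene. Open circles mark genes with 3 counts or fewer in each WT library, whose fitted fold change is no bound. Dotted lines mark -1 and 1. *LTN1* at -1.46 and *OsPT5* at 1.97 lie on opposite sides of 0. *OsUBC17* at 2.10 also lies opposite *LTN1*, a direction fixed by the choice of *LTN1* within their shared KEGG class.

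*LTN1* was 1 of 15 listed genes of the ubiquitin pathway. Of the other 14, 10 were called higher and 4 lower in *Dap1*, where 56.9% and 41.7% of all listed genes were, and their median log2 fold change was 1.26. Besides *LTN1*, the one other E2 gene listed was *OsUBC17* (*Os06g0506600*), described as a ubiquitin carrier protein. It had 13.48, 14.24 and 14.49 FPKM in *Dap1* and 3.73, 3.17 and 2.91 FPKM in WT. Its log2 fold change was 2.10 with a standard error of 0.096. The order of the 2 E2 genes in FPKM, which is per transcript length, was therefore reversed between the groups. *OsUBC17*, like *OsRZFP34* and *OsCUL1-3* below, belongs to the KEGG class in which *LTN1* was chosen as the only lower gene. That these genes were not lower was fixed by that choice and is no result. All of them are among the 10 genes called higher, so that count and the median of 1.26 carry the same limit. The reversal and the ratio of the 2 E2 genes carry it too. Within each library, a ratio that library scaling cannot move, the FPKM of *LTN1* was 0.542 ± 0.020 times that of *OsUBC17* in *Dap1* and 6.51 ± 1.16 times in WT (SD, n = 3 each). The ratio lay between 0.519 and 0.556 in *Dap1* and between 5.32 and 7.64 in WT.

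Among E3 ligases, which choose the proteins that receive ubiquitin, *OsRZFP34* (*Os01g0719100*, a RING and CHY zinc finger protein) was the most abundant listed gene of the pathway, with 788 ± 7.81 FPKM in *Dap1* and 163 ± 2.36 FPKM in WT (SD, n = 3 each). It was the only gene of the 15 above *LTN1* in WT, where *LTN1* had rank 2. In *Dap1*, *LTN1* had rank 6. The U-box gene *OsPUB63* (*Os06g0159900*) was at 127 ± 1.63 FPKM in *Dap1* and 4.92 ± 0.256 FPKM in WT, a log2 fold change of 4.69 (standard error 0.055). The F-box gene *OsFbox172* (*Os03g0727800*), an adaptor type of SCF ligases, had 89, 110 and 94 counts in *Dap1* and 0, 0 and 2 counts in WT. The RING genes *OsRING-1*, *OsRFPHC-4*, *OsRFPH2-7* and *Os03g0324900* were also called higher, with log2 fold changes of 1.13, 1.16, 2.07 and 1.36. With TMM factors *OsRING-1*, *OsRFPHC-4* and *Os03g0324900* were at 0.67, 0.71 and 0.91 and with DESeq2's size factors at 0.27, 0.31 and 0.51, no longer called, and *OsRFPH2-7* kept its call under both. With TMM factors 6 genes of the list were called higher, and with DESeq2's size factors 5.

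Some of these calls rested on single libraries. *OsPUB45* (*Os02g0540700*), another U-box gene, had a log2 fold change of 1.01 (standard error 0.17), which was 0.78 without *Dap1* replicate 2, 0.99 without WT replicate 2 and 0.95 without WT replicate 3. The cullin gene *OsCUL1-3* (*Os01g0369200*), for a scaffold of SCF-type ligases, had 12, 7 and 25 counts in *Dap1* and 4, 0 and 6 in WT and was not called without *Dap1* replicate 3. The RING-H2 gene *Os02g0686100*, with a log2 fold change of -1.07, was at -0.82 without WT replicate 1.

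The genes of the pathway that were lower with *LTN1* were of other kinds. *D53* (*Os11g0104300*), a repressor of strigolactone signalling that is itself removed after ubiquitination, had 7.44 ± 0.0872 FPKM in *Dap1* and 16.5 ± 0.620 FPKM in WT (SD, n = 3 each), and its *Dap1* level differed from that of *LTN1* by less than the SD of *LTN1*. Because a near-identical copy of *D53* is known on another rice chromosome, its counts are uncertain. *OsFbox157* (*Os03g0638900*) had a log2 fold change of -1.84 (standard error 0.29) and the RING gene *Os05g0452800* one of -1.53 (standard error 0.29), both below 2 FPKM in each group mean.

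In the KEGG class of folding, sorting and degradation, the table places *LTN1* under ubiquitin-mediated proteolysis. Of the 37 other listed genes of the class 36 were called higher, against 56.9% of all listed genes. That *LTN1* alone was lower is how it was chosen and is no result. The other genes could then not be lower, so their share called higher is no result either. The same holds for the class medians below being higher in *Dap1*. The remaining gene, *OsISC23*, described as a mitochondrial heat shock 70 kDa protein, was at 0.994 on the log2 scale, just inside the threshold, and it was called at 1.00 without *Dap1* replicate 2 and at 1.01 without WT replicate 1. The median log2 fold change of the class was 3.67, or 3.06 with genes of 3 counts or fewer in a whole group set to 3 counts. The median FPKM of the class was 56.2 in *Dap1* and 2.51 in WT. *LTN1* had rank 30 of 38 in *Dap1*, against 8 of 38 in WT, a fall that follows from how it was chosen. Heat shock proteins make up much of this class, and the part of their state in the level of *LTN1* was not tested.

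The GO terms of the table place *LTN1* in the endoplasmic reticulum and the Golgi apparatus. Of the 17 listed genes with the first term, 13 were called higher and 3 lower, and of the 11 with the second, 4 were called higher and 6 lower. Over the whole table the shares were 56.9% and 41.7%, *LTN1* is counted in both terms, and with so few genes no difference from the table was tested. Of the 6 genes with both, 3 were called higher and 2, *LTN1* included, lower. The endoplasmic reticulum term also holds genes of the KEGG class in which *LTN1* was chosen, such as *OsHsp74.8*. That these were not lower was fixed by that choice.

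Over the 6 libraries, the 5 genes most like *LTN1* were *OsVPE2*, *Os06g0560000*, *OsPOP9*, *bel* and *Os06g0606700*. Likeness was the root mean square difference of log2(scaled count + 0.5), centred on each gene's mean, among 429 other genes with a mean scaled count of at least 50. For these 5 genes it was between 0.067 and 0.094, and its median over the 429 genes was 1.34. *OsVPE2* (*Os01g0559600*), a vacuolar processing enzyme gene, had the closest values, with 2726, 2799 and 2994 counts in *Dap1* and 8179, 6432 and 7805 in WT, or 78.5 ± 0.870 FPKM in *Dap1* and 210.5 ± 5.32 FPKM in WT (SD, n = 3 each). Next came *Os06g0560000*, described as a ferroportin family gene, whose relatives export iron from cells, with 129, 164 and 156 counts in *Dap1* and 395, 333 and 389 in WT. *OsPOP9* (*Os04g0561500*) had 14.9 ± 0.657 FPKM in *Dap1* and 43.0 ± 1.86 FPKM in WT (SD, n = 3 each). The cytochrome P450 gene *bel* (*Os03g0760200*) and *Os06g0606700*, with a tetratricopeptide-like domain, had log2 fold changes of -1.48 and -1.38. As the measure is dominated by the difference between the groups, it mostly finds genes with a fold change close to that of *LTN1*. The same 5 genes were found with a minimum mean scaled count of 10.

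**Figure D4:**
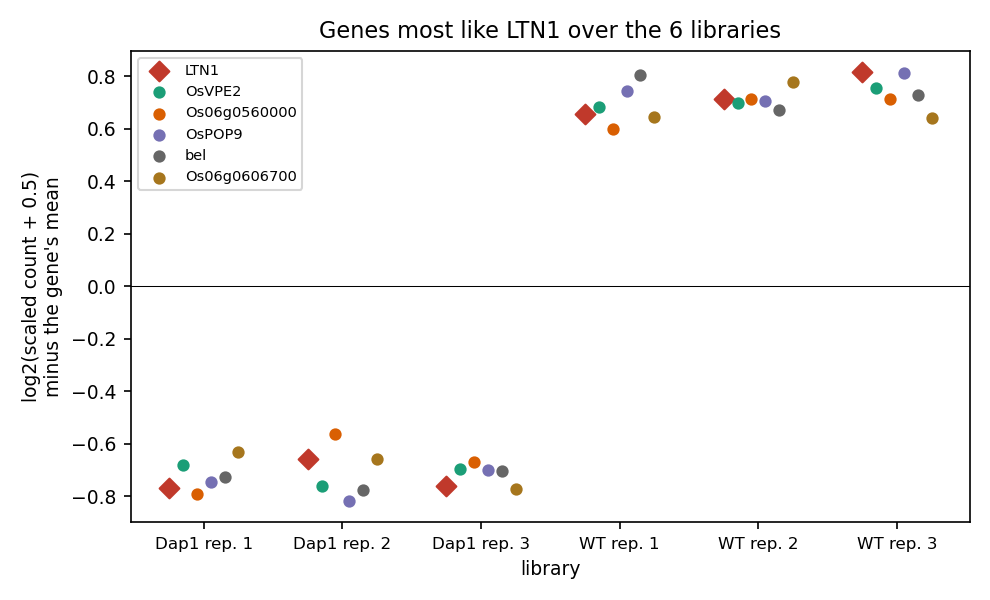
Log2(scaled count + 0.5) minus each gene's own mean, for *LTN1* (red diamonds) and the 5 genes with the smallest root mean square difference from it, in each of the 3 *Dap1* and 3 WT libraries, 1 point per gene and library. All 6 genes lie below 0 in the *Dap1* libraries and above 0 in the WT libraries, and *LTN1* spans -0.77 to -0.66 in *Dap1* and 0.66 to 0.82 in WT.

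Of 15 listed genes of other mineral nutrients, 10 were called lower in *Dap1* (66.7%, against 41.7% of all listed genes) and 5 higher (33.3%, against 56.9%), a difference that was not tested, with a median log2 fold change of -1.27. The lower ones included *OsNRT1.5A* (*Os02g0689900*), named as a nitrate transporter, with 93, 107 and 98 counts in *Dap1* and 293, 240 and 248 in WT, a log2 fold change of -1.42 (standard error 0.12). They also included *KAT3* and *OsSultr2*, a sulphate transporter gene, at -1.27 and -1.22, while the iron and manganese transporter gene *NRAMP1* (*Os07g0258400*) had 2, 2 and 1 counts in *Dap1* and 70, 39 and 55 in WT. Among the higher ones were the ferritin genes *FER2* and *OsFER1*, which store iron, at 1.65 and 1.41. These 2 genes lie in a duplicated stretch of the genome and may share fragments. *OsFER1* was at 0.96 with TMM factors, and with DESeq2's size factors *FER2* and *OsFER1* were at 0.80 and 0.56, no longer called. With TMM factors 3 of the 15 genes were called higher, and with DESeq2's size factors 1 was.

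By its identifier *LTN1* is on chromosome 5, where 28 of 65 listed genes were called lower (43.1%) and 37 higher (56.9%), close to the 41.7% and 56.9% of the whole table. The listed genes nearest in identifier order were *OsLTP2.4* (*Os05g0550300*) and *OsGLT2* (*Os05g0555600*) on one side and *OsDjB7* (*Os05g0562300*) and *Os05g0562350* on the other. They code for a lipid transfer protein, a glutamate synthase, a DnaJ-like co-chaperone and a hypothetical protein. All 4 were higher in *Dap1*, with log2 fold changes of 2.20, 1.10, 3.5 and 3.40, so *LTN1* did not share its direction with them. *OsGLT2* was below the threshold without *Dap1* replicate 2, at 0.98, and without WT replicate 1, at 0.89, and it was at 0.65 with TMM factors and 0.25 with DESeq2's size factors. *OsDjB7* and *Os05g0562350* have adjacent identifiers, and fragments of overlapping genes could not be separated without a known strand setting.

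The 4 listed leaf markers, genes with photosystem II symbols, were all called higher in *Dap1*, where 56.9% of all listed genes were. As listed genes were selected for changing, these markers cannot check the tissue. The most abundant of them, *PSBS2*, had 255 ± 4.84 FPKM in *Dap1* and 99.0 ± 1.76 FPKM in WT (SD, n = 3 each). It was at 0.91 with TMM factors and 0.51 with DESeq2's size factors, no longer called. The other leaf markers rest on fewer fragments, with at most 45 counts in a WT library. Genes for the Rubisco small subunit and chlorophyll-binding proteins were not analysed here. Of the chosen panicle and meristem markers only *OsWUS* (*Os04g0663600*, under the symbol *WOX1*) was listed, with 77, 100 and 105 counts in *Dap1* and 0 in each WT library. *OsWUS* is the gene that the T-DNA lies upstream of, so its rise cannot be read as a change of tissue. By qRT-PCR in WT, the paper also found more *OsWUS* in leaves than in the other tissues it measured. Other listed genes known from the panicle went both ways, with log2 fold changes of -2.45 for *PAP2* (*Os03g0753100*), -1.54 for *SP1* (*Os11g0235200*), -1.11 for *MADS26* (*Os08g0112700*) and 3.0 for *Gn1a* (*Os01g0197700*). *MADS26* was at -0.89 without WT replicate 1. No root marker was listed. The part of these differences in the level of *LTN1* was not tested. The counts on all listed genes were between 601642 and 666483 in the *Dap1* libraries and between 244181 and 314019 in the WT libraries. Totals over all mapped fragments were not analysed here.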

How the data were processed

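Leaf mRNA of 3 *Dap1* and 3 WT samples was read from 1 deposited table. The authors used Fastp to discard low-quality reads and Bowtie 2 to take out rRNA, then HISAT 2 against the Nipponbare genome, StringTie for transcripts and RSEM for expression levels. The assembly release, tool versions and strand setting are not given in the sources used here. The deposited raw counts are fragments per gene, and the deposited FPKM values are these counts scaled to transcript length and mapped fragments. Only the 925 genes that the authors called are listed. The authors' log2 fold change, p-value and FDR columns and their mean FPKM columns were not used. None of the 925 identifiers matched the RefSeq gene table (0 matched).

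Each library's relative size came from the ratio of count to FPKM, as its median over 258 genes whose FPKM was nowhere under 2. Counts were fitted with edgeR 4.0.16 (R 4.3.3; glmQLFit, glmQLFTest), with Benjamini-Hochberg adjustment over all listed genes. A gene was called when its log2 fold change exceeded 1 in size with an adjusted p-value below 0.05. Standard errors are the size of that change over the root of F. Alternatives were TMM and DESeq2 1.42.0 size factors, the Wald test of DESeq2, log2(FPKM + 1) and log2(FPKM + 0.1) in limma 3.58.1, a minimum mean count of 10, a replicate block and each library left out. The fit was tested on simulated data. Differences between replicates exceeded sampling noise (chi-square per gene between 1.81 and 2.21).

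*LTN1*, the lists and the rule for named genes were chosen with earlier results of these data known. Named were *LTN1*, the members of the phosphate and ubiquitin lists, its 5 most similar genes, and its neighbours by identifier, fold change and WT FPKM. The gene next below it by WT FPKM is not reported here. *OsDH1*, the genes next to it in *Dap1* FPKM or count, *OsISC23*, *OsWUS* and the mineral nutrient, photosystem and other panicle genes were added once their values had been seen.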

Additional observations from a re-analysis of the deposited data

How the results depend on the processing

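The log2 fold change of *LTN1* stayed negative and beyond -1 in all 14 alternatives, between -2.31 (DESeq2's size factors) and -1.35 (limma on log2(FPKM + 1)), and with the replicate block it was -1.46. Deviations of same-numbered *Dap1* and WT libraries correlated at -0.0064, -0.018 and -0.034, so no shared deviation was seen. The block moved no count of calls by more than 1.5 times. Whether same-numbered samples were taken or prepared together is not stated in the sources used here, and these values cannot settle it. None of the genes named with a fold change, level or count changed sign in an alternative. With TMM factors, genes called higher fell in number to 342 over the table, 6 in the ubiquitin list, 3 in the mineral nutrient list and 1 in the phosphate recycling and lipid list. With DESeq2's size factors these numbers were 251, 5, 1 and 0. Both sets of factors were computed over genes selected for changing, so scaling with them is biased. On limma's log2(FPKM + 1) scale, on which changes of low genes come out too small, 276 genes were called higher and 118 lower over the table. On that scale 0 higher and 1 lower remained in the phosphate homeostasis list, 1 and 2 in the recycling and lipid list, 2 lower in the ubiquitin list and 5 lower in the mineral nutrient list. With a mean count of at least 10, which leaves fewer genes tested, 1 gene of the recycling and lipid list was called higher. With each library left out, the phosphate homeostasis list had between 1 and 2 genes called lower. Among the values of single named genes and the phosphate-induced list, 614 kept their side of the threshold, 53 gene values lost their call, 3 of *OsISC23* gained one and 4 list counts moved. The block took *OsPUB45* to 0.99, just inside the threshold. The listed genes were selected on these libraries, which the alternatives cannot undo, and genes with few counts carry large errors.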
